A study of Mus musculus with 8 samples.

Results

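The nuclear genome encodes most subunits of the 5 oxidative phosphorylation complexes, and their RNA levels were compared here between brains of wild-type mice and of mice labelled Nsun5-KO. Members were the protein-coding rows of the deposited table with symbols that begin with Nduf (subunit classes a, b, c, s and v), Sdh (a to d), Uqcr, Cox4 to Cox8 or Atp5. This gave 84 of 54532 genes (22046 of them protein-coding), under 83 distinct symbols since Atp5o occurs on 2 rows. Complex I held 36 members, complex II 4, complex III 8, complex IV 18 and complex V 18. Assignment followed the symbol, so Ndufa4, which is known as a complex IV subunit, was counted with complex I. Likewise Cox7a2l, a factor that joins complexes III and IV, and Atp5s, a coupling factor, were counted with complexes IV and V although they are not classical subunits.

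Both groups were male mice of 3 months, described as litter mates, with 4 brain RNA libraries each out of 5 mice per genotype in the protocol: wild type (WT) and Nsun5-KO. The sources used here give neither the strain nor the construction of the Nsun5 allele, and the labels do not tie a library to an animal, so p-values measure the spread between libraries. Nsun5 encodes a methyltransferase of the large ribosomal RNA, and the series relates its loss to myelination and sleep. Nsun5 RNA did not separate the genotypes: its counts were 91, 82, 103 and 109 in WT replicates 1 to 4 and 102, 124, 83 and 110 in Nsun5-KO replicates 1 to 4. Scaled to library size as CPM (the count relative to the library's TMM-scaled total), the means were 5.74 ± 0.538 for WT and 6.28 ± 0.887 for the other group (SD, n = 4). The fitted difference was 0.13 on the log2 scale (SE 0.15), with an adjusted p of 0.817 by edgeR's quasi-likelihood test. Every direction below therefore refers to the libraries labelled Nsun5-KO.

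The libraries held 15642086 to 17829523 counts, and no 2 libraries of a group agreed within sampling noise. WT replicates 1 and 2 stood apart on the first principal component (25.7% of the variance). Neuron, astrocyte and oligodendrocyte markers were present in every library, as the label brain implies. Summed levels of some tissue markers lay apart between the groups, but no marker gene tested had an edgeR adjusted p below 0.05. Summed CPM of 9 neuron markers was 6471 to 6977 in WT and 7576 to 8187 in Nsun5-KO, that of 7 oligodendrocyte markers 6701 to 7333 and 4375 to 6057, and that of 6 hypothalamus markers 26.6 to 128 and 12.2 to 22.3. Choroid plexus and ependyma markers spanned 309 to 1118 and 54.0 to 1141, and the astrocyte, microglia, endothelial and mural sums also overlapped. Of the neuron markers 8 had log2 fold changes above 0 and 1, Gad2, below (-0.43). Snap25 held the largest part of the neuron sum, with means of 2326 CPM in WT and 3002 in Nsun5-KO. Because these are bulk samples, fewer cells of a type, less RNA per cell and a difference in the brain regions sampled cannot be told apart.

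Oxidative phosphorylation makes most of the ATP of neurons, which rely on it for ion pumping and synaptic transmission. Complexes I and II pass electrons from NADH and succinate to ubiquinone, complex III passes them to cytochrome c, and complex IV passes them to oxygen. Complexes I, III and IV pump protons, and complex V, the ATP synthase, uses the gradient. Complex II is built from nuclear genes alone, while the other complexes also hold subunits encoded by mitochondrial DNA. The promoters of many nuclear subunit genes are known to bind the factors NRF1, the ETS protein GABPA and YY1.

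No subunit gene was called different between the genotypes at an adjusted p below 0.05 (edgeR, Benjamini-Hochberg over 16062 genes). Over all genes 0 were called as well (0.0%, smallest adjusted p = 0.178), while DESeq2 called 97 of 13977 genes (0.694%) and none of the members. Of the 84 members 81 passed the low-count filter: all 36 of complex I, 4 of complex II, 8 of complex III, 16 of complex IV and 17 of complex V. At an unadjusted p below 0.05, 2 of 81 members were higher in Nsun5-KO, Sdhd and Atp5f1, against 5.3% of all genes (852), and 0 were lower, against 5.05% (811). Both shares are at or below the background.

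The differences were small as well as unsupported. The log2 fold change (Nsun5-KO over WT) was above 0 for 47 members and below 0 for 34, against 48.6% and 51.4% of all genes. Its median was 0.021 over the members and -0.0055 over all genes. By complex, the median was 0.0032 for complex I, -0.047 for complex II, 0.030 for complex III, 0.024 for complex IV and 0.040 for complex V. For 72 of 81 members the 95% interval lay within 1.5-fold in either direction, against 66.3% of all genes. These were 33 of 36 in complex I, 4 of 4 in complex II, 7 of 8 in complex III, 12 of 16 in complex IV and 16 of 17 in complex V. The 9 members with wider intervals were Ndufa2, Ndufa12, Ndufs6, Uqcr11, Cox4i2, Cox6b2, Cox7a1, Cox8b and Atp5k. For those 72 members a change of 1.5-fold or more lies outside the interval. Some intervals were tighter, such as -0.15 to 0.12 on the log2 scale for Sdha. Changes inside a member's interval were not resolved with 4 libraries a group.

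**Figure D1:**
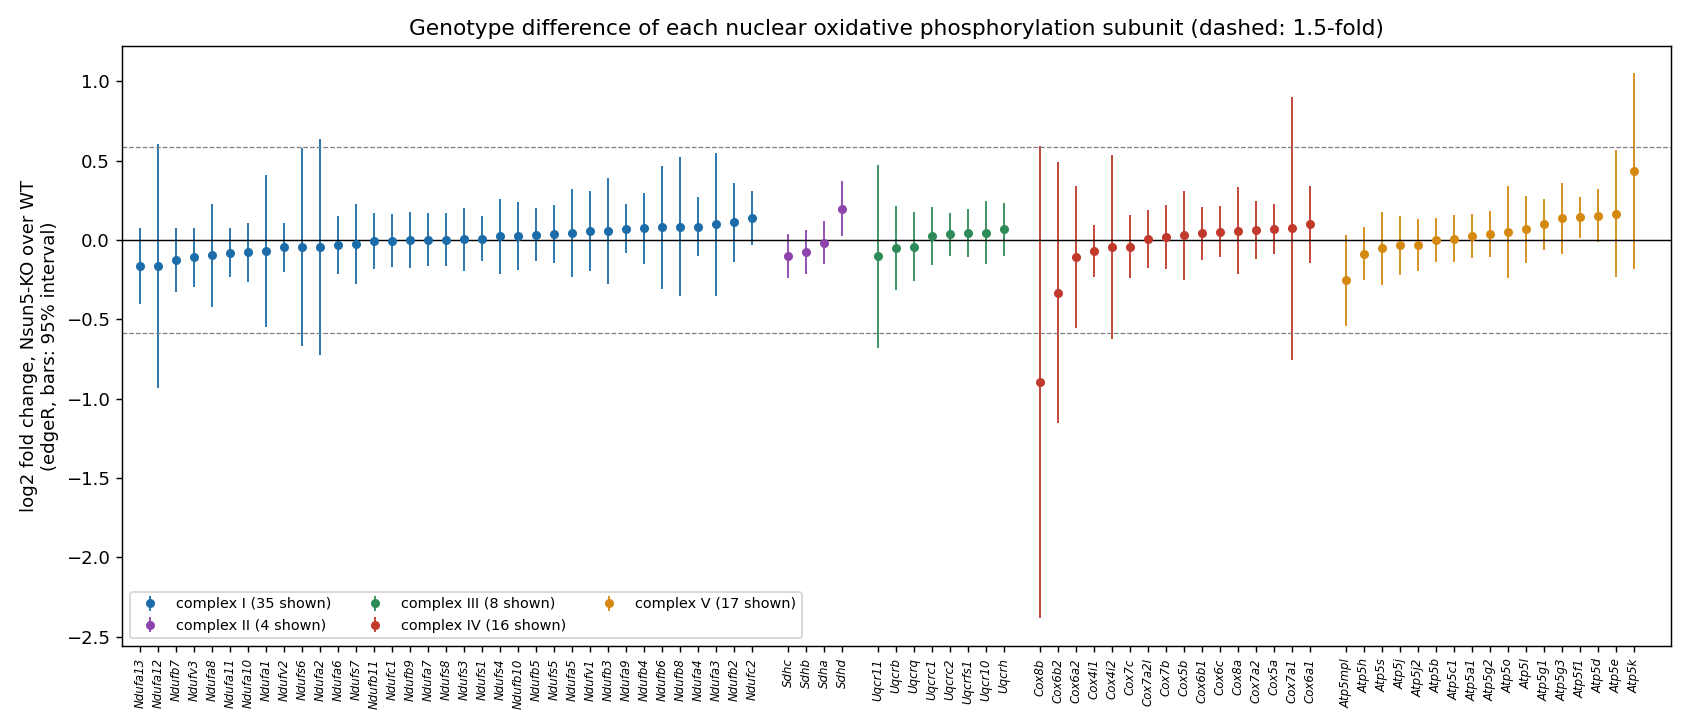
Log2 fold change of Nsun5-KO over WT for the tested subunit genes shown, grouped by complex and ordered by value within it (points: edgeR estimates from 4 against 4 libraries; bars: 95% intervals; dashed lines: 1.5-fold). All but 2 intervals, those of Sdhd and Atp5f1, include 0, and the widest belong to complex IV genes with few counts.

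Levels between genes were read from the deposited FPKM (fragments scaled to gene length and library size), as the mean over 8 libraries. Complex IV and complex III genes had the highest median FPKM, 90.05 and 89.3. Complex V followed with 70.5, complex II with 60.4 and complex I with 50.4. The order of complexes V and II is not resolved. Library medians averaged 55.4 in WT and 64.6 in Nsun5-KO for complex V, and 58.9 and 62.0 for complex II. The highest member was Cox8a with an FPKM of 646, a small subunit of complex IV, followed by Cox6a1 with 463. Next in order came Atp5a1 and Atp5b, the alpha and beta subunits of the catalytic head of ATP synthase, with FPKM of 304 and 298. Their order is not resolved: the FPKM of Atp5a1 was 301 ± 12.1 in WT and 307 ± 13.5 in Nsun5-KO, and that of Atp5b 298 ± 8.37 and 298 ± 15.2 (SD, n = 4).

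At the lower end, FPKM was 3.47 for Ndufb2, a complex I subunit, 8.74 for Atp5s and 1.22 for Cox6b2. FPKM divides by the gene length listed with the counts, which is 5628 bases for Ndufb2 against 315 coding bases. Throughout, gene length means this listed length, which can be shorter than the genomic span. The Ndufb2 gene runs from base 39592574 to base 39603382 of chromosome 6. The median FPKM moved little with genotype for complexes I and IV, and more for complex V. Complex I had 51.2 ± 7.43 in WT and 51.0 ± 4.61 in Nsun5-KO, complex IV had 88.8 ± 9.51 and 89.9 ± 10.9, and complex V had 55.4 ± 9.40 and 64.6 ± 7.55 (SD over the library medians, n = 4). In each case the means differ by less than the WT SD, though for complex V only just, and by more than its Nsun5-KO SD. The library medians of complex V ran from 46.5 to 70.7, as its genes leave a gap in that interval.

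**Figure D2:**
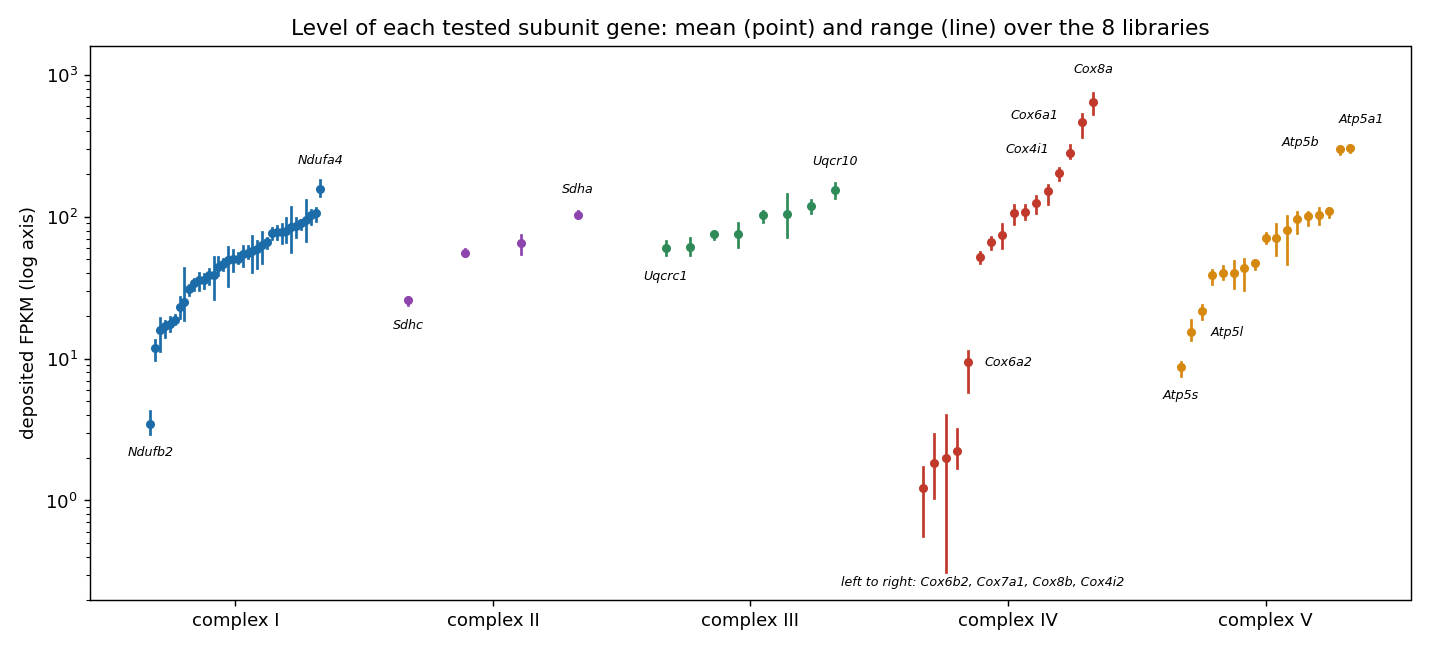
Deposited FPKM of the 81 tested subunit genes by complex (log axis; points: mean of 8 libraries; lines: lowest to highest library). Most genes lie between 10 and 500, while the complex IV isoforms Cox6b2, Cox7a1, Cox8b and Cox4i2 lie near 1 to 3.

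Promoters of the members hold the letters of these factors more often than promoters at large. RefSeq's promoter table (250 bases before to 50 after the start) matched 68 members with 73 promoters. The NRF1 letters (GCGCA, any base, GCGC), searched on both strands like the others, were in 18 of 73 member promoters (24.7%) and in 4.60% of 32851 promoters in the table. The ETS letters CCGGAAG were in 16 (21.9%, against 8.86%), and the YY1 letters AAGATGGC in 10 (13.7%, against 2.75%). At least 1 of these was in 38 (52.1%, against 14.7%). A match describes letters and not binding. The 100 bases before the start are shown for 6 members to which the results below return. Sdhd had the smallest p of the set and Sdha is its catalytic partner in complex II, Atp5k, Ndufs6 and Uqcr11 varied about 2-fold between libraries, and Atp5j carries YY1 and ETS letters together in the promoter shown, though not in its second one. Capitals mark NRF1, ETS or YY1 letters on either strand, and sequences read 5′ to 3′ on the gene's strand (build GRCm38.p6).
Sdhd: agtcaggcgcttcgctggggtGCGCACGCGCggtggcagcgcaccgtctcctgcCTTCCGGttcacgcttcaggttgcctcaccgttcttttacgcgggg
Sdha: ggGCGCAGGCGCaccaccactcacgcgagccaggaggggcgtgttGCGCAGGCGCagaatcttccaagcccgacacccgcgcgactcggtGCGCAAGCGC
Atp5k: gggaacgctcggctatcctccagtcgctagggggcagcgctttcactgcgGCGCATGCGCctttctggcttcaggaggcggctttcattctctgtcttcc
Ndufs6: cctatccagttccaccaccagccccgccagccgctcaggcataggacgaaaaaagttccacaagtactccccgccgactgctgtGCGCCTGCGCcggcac
Uqcr11: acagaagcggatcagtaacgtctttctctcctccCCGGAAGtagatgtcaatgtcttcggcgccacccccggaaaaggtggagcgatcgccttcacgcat
Atp5j: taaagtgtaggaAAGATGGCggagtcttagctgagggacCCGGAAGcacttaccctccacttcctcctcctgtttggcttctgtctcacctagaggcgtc

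These windows lie at chr9:50603850-50603949 for Sdhd, chr13:74350241-74350340 for Sdha, chr5:108434400-108434499 for Atp5k, chr13:73328483-73328582 for Ndufs6, chr10:80406822-80406921 for Uqcr11 and chr16:84834977-84835076 for Atp5j, all on the minus strand. Sdhd holds 1 NRF1 and 1 ETS match in the stretch shown, and Sdha holds 3 NRF1 matches. In Atp5k the NRF1 letters are a palindrome, with T as the open base, which 5 member promoters held (6.85%, against 0.971% of all). The genotype difference did not sort by these letters. Median log2 fold changes were 0.038 for 17 members with NRF1 letters and 0.024 for 50 without, 0.051 for 16 with ETS letters and 0.023 for 51 without, and 0.0091 for 10 with YY1 letters and 0.028 for 57 without.

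Complex I, the NADH dehydrogenase, had no called member, and 16 of its 36 members lay below 0 and 20 above. Ndufs1, the largest core subunit, had 154, 149, 156 and 154 CPM in WT and 143, 159, 149.5 and 165 CPM in Nsun5-KO. Its WT libraries lay inside the range of the other group (log2 fold change 0.0075, 95% interval -0.13 to 0.15). Ndufv1, which binds NADH and the flavin, had 114, 117, 156 and 154 CPM in WT and 143, 157, 126 and 137 CPM in Nsun5-KO. WT replicates 1 and 2 were the lowest of the 8, and the log2 fold change was 0.055 (SE 0.11).

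Over the 29 accessory subunits of complex I the median log2 fold change was 0.0010, with a range of -0.17 to 0.14. Ndufc2, an accessory subunit of the membrane arm, had the smallest p of the complex. Its CPM was 54.3, 53.3, 57.03 and 60.9 in WT and 64.1, 65.2, 54.6 and 64.3 in Nsun5-KO, so 3 of 4 Nsun5-KO libraries lay above every WT library and replicate 3 lay among them. The log2 fold change was 0.14 (SE 0.08, edgeR adjusted p = 0.581, exact permutation p = 0.0857). Ndufa13, an accessory subunit also linked to cell death, had 69.8, 78.5, 83.9 and 84.5 CPM in WT and 72.6, 77.7, 54.7 and 77.3 CPM in Nsun5-KO. Nsun5-KO replicate 3 was lowest, and the log2 fold change was -0.17 with an edgeR adjusted p of 0.645. Libraries were not stranded, and Ndufa13 overlaps Yjefn3 and Tssk6.

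Complex II, the succinate dehydrogenase, held the member with the smallest p. Sdhd (ENSMUSG00000000171, chr9:50596357-50603812 in mm10), a membrane anchor that helps bind ubiquinone, had 67.7, 72.1, 80.4 and 81.7 CPM in WT and 92.6, 88.7, 84.3 and 80.7 CPM in Nsun5-KO. The groups overlapped by a single pair, since WT replicate 4 lay above Nsun5-KO replicate 4. The means were 75.5 ± 6.68 and 86.5 ± 5.18 CPM (SD, n = 4), a log2 fold change of 0.20 (SE 0.08, 95% interval 0.025 to 0.37, unadjusted p = 0.0283 and adjusted p = 0.433 by edgeR). An exact two-sided permutation over 70 labelings gave p = 0.0571. Without WT replicates 1 and 2, the lowest libraries, the log2 fold change was 0.092.

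The other 3 subunits of complex II lay slightly on the other side of 0. Sdha, the flavoprotein that oxidises succinate, had 421, 406, 440.4 and 457 CPM in WT and 421, 427, 417 and 439.8 CPM in Nsun5-KO (log2 fold change -0.017, SE 0.06). It was among the steadiest genes of the set. Sdhb, the iron-sulphur subunit, had a log2 fold change of -0.078 (SE 0.06), and its means were 129 ± 6.97 and 122 ± 2.92 CPM (SD, n = 4). Sdhc, the other membrane anchor, had 88.7, 87.2, 86.7 and 88.5 CPM in WT and 82.4, 87.2, 77.6 and 80.2 CPM in Nsun5-KO. For Sdhc the log2 fold change was -0.10 (SE 0.06, edgeR adjusted p = 0.613). Sdhc and Sdhd, which pair in the membrane, thus had fold changes of opposite sign, and neither was called.

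Complex III, the cytochrome c reductase, gave log2 fold changes between -0.10 and 0.069, with 5 of 8 members above 0. Uqcrfs1, the Rieske iron-sulphur protein, had 136, 127, 143 and 151 CPM in WT and 146, 143, 146 and 139 CPM in Nsun5-KO (log2 fold change 0.044, SE 0.07). Its Nsun5-KO libraries lay within the WT range. Uqcrh, the hinge protein, had 142, 140.2, 151 and 149 CPM in WT and 153, 163, 132 and 162 CPM in Nsun5-KO, with a log2 fold change of 0.069 (SE 0.08, edgeR adjusted p = 0.800). Uqcrc1, a core protein, had means of 250.4 ± 17.9 and 254 ± 24.8 CPM (SD, n = 4; log2 fold change 0.023). Uqcr11, a very small subunit that was singled out after its values were seen, varied most. It had 46.5, 52.3, 94.1 and 85.5 CPM in WT and 74.8, 73.2, 51.8 and 59.4 CPM in Nsun5-KO. The WT libraries alone covered the whole range of the 8, which leaves a log2 fold change of -0.10 with a 95% interval of -0.68 to 0.48.

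Complex IV, the cytochrome c oxidase, was dominated by the broadly expressed isoforms, and none of its members was called. Cox4i1, which takes part in assembly and in regulation by ATP, had 416, 419, 475 and 498 CPM in WT and 444, 438, 407 and 435 CPM in Nsun5-KO (log2 fold change -0.069, SE 0.07). Cox5a had means of 108 ± 6.64 and 114 ± 7.01 CPM (SD, n = 4; log2 fold change 0.069). Cox8a had 307, 291, 413 and 379.5 CPM in WT and 409, 393, 314 and 333 CPM in Nsun5-KO, so that both groups held high and low libraries (log2 fold change 0.059, SE 0.12).

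Alternative isoforms of complex IV, several of which are typical of heart, skeletal muscle, lung or testis, made up little of the FPKM of their pair. Cox4i2, the form known from lung and from hypoxia, took 0.628% to 0.999% of the Cox4i1 and Cox4i2 sum. Cox6a2, the heart and muscle form that is also known from fast-spiking interneurons, took 1.75% to 2.70% in WT and 1.30% to 2.23% in Nsun5-KO. Cox7a1 took 0.836% to 2.06%, Cox6b2 0.281% to 0.913%, Cox7b2 0.413% to 1.41%, and Cox8b 0.045% to 0.529%. WT and Nsun5-KO ranges overlapped for every pair. Cox6a2 had 131, 85, 128 and 105 counts in WT and 111, 128, 64 and 111 counts in Nsun5-KO (log2 fold change -0.11, SE 0.20). Summed CPM of 6 fast-spiking interneuron markers was 404 to 603 in WT and 563 to 717 in Nsun5-KO, and striated muscle markers summed to 10.2 to 16.2 CPM over the 8 libraries. Their part in the Cox6a2 level was not tested.

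The sparsest complex IV genes do not allow a comparison. Cox8b had 18, 13, 24 and 8 counts in WT and 22, 2, 7 and 2 counts in Nsun5-KO, and its log2 fold change of -0.90 has a 95% interval of -2.39 to 0.59. Cox7b2 had 4 to 12 counts a library and was not tested. Cox8c had 0 counts in every library, which allows a level of up to 0.170 to 0.192 CPM (3 counts of a library's total, covering counting error only).

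Complex V, the ATP synthase, had the largest share of members above 0, 11 of 17, and again no call. Atp5f1 (ENSMUSG00000000563, chr3:105942698-105960099 in mm10), the peripheral stalk subunit b, had 285, 278, 271 and 274 CPM in WT and 292, 301, 317 and 313 CPM in Nsun5-KO. This was the only tested member whose groups did not overlap (1 of 81, against 2.99% of all genes higher and 2.71% lower without overlap). The means were 277 ± 6.20 and 306 ± 11.3 CPM (SD, n = 4), a log2 fold change of 0.14 (SE 0.06, 95% interval 0.012 to 0.27, unadjusted p = 0.0349 and adjusted p = 0.448 by edgeR). An exact two-sided permutation gave 0.0286, the smallest p that 4 against 4 can give. Atp5f1 overlaps Wdr77 on the opposite strand, and reads from the stretch they share cannot be told apart by strand. The extent of that stretch was not measured. Atp5j, another peripheral stalk subunit, chosen here for its promoter, had 118, 119, 135 and 139 CPM in WT and 127, 140.5, 114 and 117 CPM in Nsun5-KO. Its groups overlapped, and it overlaps Gabpa on the opposite strand.

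The catalytic head did not follow Atp5f1. Atp5a1 had means of 952 ± 36.7 and 969 ± 44.2 CPM (log2 fold change 0.025, SE 0.06), and Atp5b had 1274 ± 34.5 and 1273 ± 66.2 CPM (log2 fold change -0.0015, SE 0.06; SD, n = 4). Atp5d, the delta subunit of the central stalk, had 173, 175, 199 and 207 CPM in WT and 224.5, 208, 196 and 210.2 CPM in Nsun5-KO (edgeR log2 fold change 0.15 with SE 0.08, adjusted p = 0.529). Its lowest libraries were WT replicates 1 and 2, and Atp5d overlaps Cbarp. The rotating c-ring is made of identical proteins from 3 genes. Of their summed FPKM, Atp5g3 gave 57.4% ± 2.41 in WT and 58.8% ± 1.08 in Nsun5-KO, Atp5g2 gave 29.3% ± 1.85 and 27.9% ± 0.994, and Atp5g1 gave 13.3% ± 0.769 and 13.2% ± 0.556 (SD, n = 4). These shares differed by less than the WT SD. The log2 fold changes were 0.136 for Atp5g3, 0.040 for Atp5g2 and 0.098 for Atp5g1, with none called.

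Atp5k and Atp5mpl, both small proteins in the membrane part of the enzyme, varied between libraries in opposite directions and were singled out after their values were seen. Atp5k, subunit e, had 30.0, 29.0, 58.5 and 52.2 CPM in WT and 63.0, 62.8, 41.5 and 62.3 CPM in Nsun5-KO. Replicates 1 and 2 of WT lay lowest, followed by Nsun5-KO replicate 3, and the log2 fold change of 0.44 had a 95% interval of -0.18 to 1.05. Atp5mpl, a small proteolipid, had 108, 109.5, 86.4 and 75.1 CPM in WT and 87.6, 81.2, 65.4 and 83.1 CPM in Nsun5-KO. Here WT replicates 1 and 2 were the highest, and the log2 fold change was -0.25 (SE 0.13, edgeR adjusted p = 0.534). Nsun5-KO replicate 3 was again low.

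**Figure D3:**
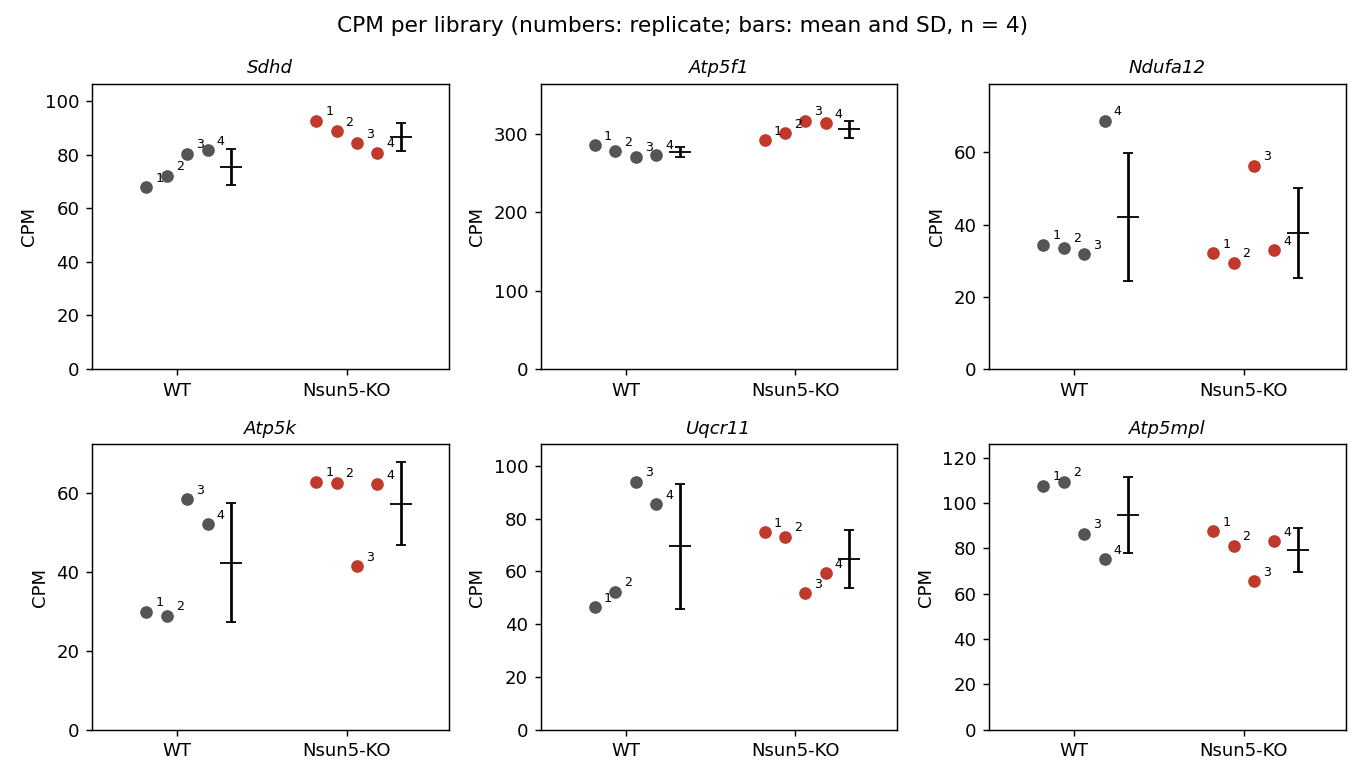
CPM of 6 subunit genes in every library (points, numbered by replicate; bars: mean and SD of 4 libraries; axes start at 0). Only Atp5f1 separates the groups; Ndufa12 is high in WT replicate 4 and Nsun5-KO replicate 3, and Atp5k and Uqcr11 are low, and Atp5mpl high, in WT replicates 1 and 2.

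The subunit genes varied together between libraries within a genotype, and more than between genotypes. For each gene the log2 CPM of a library was taken minus the gene's mean over the 8. The median of this deviation over the 81 members was -0.090, -0.11, 0.072 and 0.088 in WT replicates 1 to 4 and 0.054, 0.096, -0.14 and 0.0054 in Nsun5-KO replicates 1 to 4. The genotype means of these medians were -0.0091 ± 0.10 and 0.0048 ± 0.10 (SD, n = 4). In WT, 17, 16, 65 and 67 of 81 members lay above their own mean, and in Nsun5-KO 63, 72, 8 and 43. Over all genes tested, the median deviation stayed between 0.0025 and 0.012. Nsun5-KO replicate 3 was the lowest library for 33 members, WT replicate 2 for 23 and WT replicate 1 for 17.

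**Figure D4:**
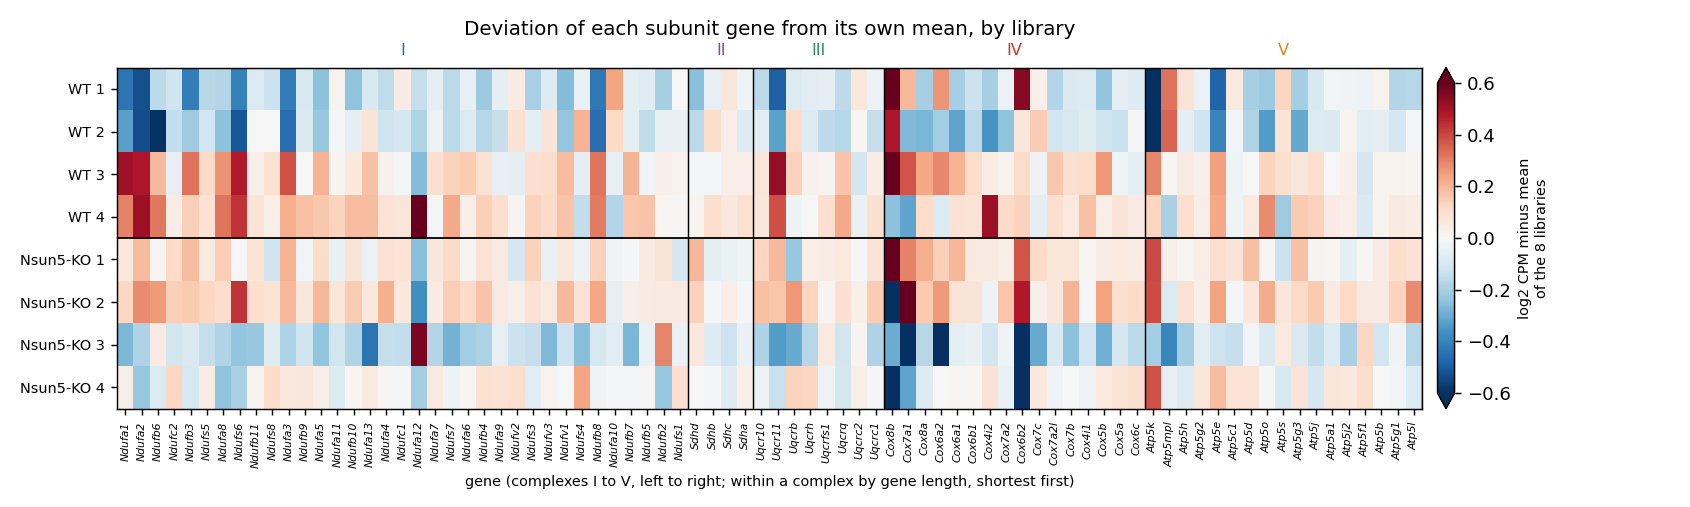
Deviation of log2 CPM from the gene's mean over the 8 libraries for the subunit genes shown (columns, by complex and, within it, by gene length, shortest first; rows: libraries; the colour scale ends at 0.6 either way). WT replicates 1 and 2 and Nsun5-KO replicate 3 are mostly below the mean, most deeply in the short genes at the left of complexes I, III and V.

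The same 3 libraries were low for complexes I, III, IV and V, while complex II moved least. The range of the library medians was 0.28 for complex I, 0.32 for complex III, 0.27 for complex IV and 0.20 for complex V, but 0.13 for the 4 genes of complex II. The median range of a single gene over the 8 libraries was 0.19 for complex II, with Sdhd at 0.45, against 0.38 for all members and 0.55 for all genes. Enzymes of the tricarboxylic acid cycle, which feeds the chain in the same organelle, had library medians within a range of 0.091. Complex II is itself part of that cycle. By listed length its genes have 1231 to 4126 bases, and members of 2000 to 4000 bases had library medians within a range of 0.17. Why complex II moved least was not tested.

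Listed gene length, which is not the genomic span, moved with this pattern. Over the 22 members shorter than 1000 bases, the median deviation was -0.16, -0.25, 0.22 and 0.098 in WT and 0.12, 0.16, -0.18 and -0.019 in Nsun5-KO. Over the 887 tested genes of that length in the whole table it was -0.053, 0.0069, 0.11 and 0.087 in WT and 0.053, 0.044, -0.11 and 0.0045 in Nsun5-KO. WT replicate 2 thus was low for the short subunit genes and not for short genes at large. Over the 10 members longer than 4000 bases the range was 0.11, against 0.47 for the short ones. Across the 81 members, Spearman's rho between a library's deviation and gene length was 0.25, 0.37, -0.50 and -0.20 in WT and -0.41, -0.34, 0.35 and 0.18 in Nsun5-KO. Over all genes tested it lay between -0.19 and 0.21. Length was not the only correlate. For transcript GC content, rho across the members was -0.25, -0.21, 0.41 and 0.40 in WT and 0.22, 0.072, -0.17 and -0.17 in Nsun5-KO. Genes of a library share its depth and are not independent, so these values are descriptive. The part of gene length or GC content in the result was not tested.

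**Figure D5:**
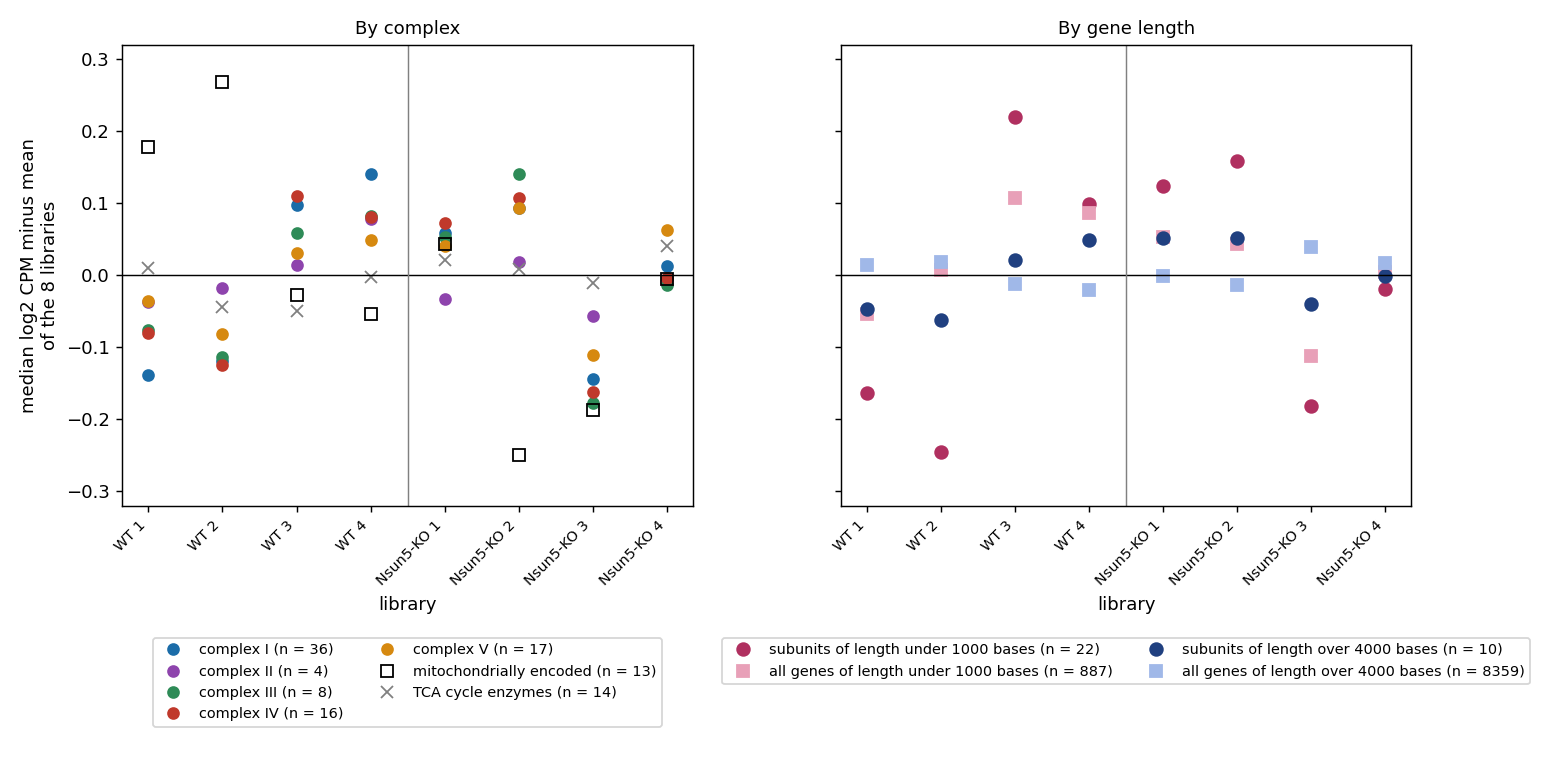
Median deviation of log2 CPM from the mean of the 8 libraries, per library, by complex (left, with mitochondrially encoded subunits and TCA cycle enzymes) and by gene length (right, subunit genes beside all tested genes of that length). Complexes I, III, IV and V lie below 0 in WT replicates 1 and 2 and Nsun5-KO replicate 3, where complex II lies between -0.057 and -0.018 and the TCA cycle between -0.044 and 0.010.

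Several single members carried this pattern at larger amplitude, and they were chosen after their values were seen. Ndufa2 had 32.7, 32.6, 66.0 and 67.3 CPM in WT and 53.9, 57.4, 41.5 and 40.2 CPM in Nsun5-KO, and Ndufs6 had 25.7, 23.9, 47.4 and 46.1 CPM and 34.1, 46.0, 28.9 and 29.8 CPM. Both are small accessory subunits of complex I, with WT replicates 1 and 2 lowest and WT replicates 3 and 4 highest. Their log2 fold changes were -0.042 (SE 0.29) and -0.044 (SE 0.27). Ndufa2 overlaps Tmco6 and Ndufs6 overlaps Mrpl36.

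Ndufa12, an accessory subunit of complex I also chosen after its values were seen, followed none of this. It had 34.4, 33.5, 31.8 and 68.7 CPM in WT and 32.01, 29.5, 56.3 and 32.96 CPM in Nsun5-KO. WT replicate 4 and Nsun5-KO replicate 3 were thus far above the other 6 libraries, which lay between 29.5 and 34.4. The neighbouring genes did not share the pattern: Nr2c1 had 6.79 to 12.2 CPM, Fgd6 15.8 to 23.3 and Vezt 60.5 to 76.0, each with its extremes in other libraries than these apart from Fgd6, which was highest in Nsun5-KO replicate 3. The log2 fold change of Ndufa12 was -0.16 (SE 0.33).

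WT replicates 1 and 2 set how the genotype comparison reads. They had the lowest subunit medians among the WT libraries, so leaving them out was bound to lower the fold changes of the set. The counts from that fit describe this dependence and are not evidence on genotype. Without WT replicates 1 and 2 the median log2 fold change of the members was -0.074, with -0.11 for complexes I and IV, -0.083 for complex II, -0.051 for complex III and -0.018 for complex V. At an unadjusted p below 0.05, 9 members were then lower in Nsun5-KO (Ndufa1, Ndufa2, Ndufa8, Ndufb7, Ndufb8, Ndufs6, Uqcr11, Uqcrq and Cox4i1), against 3.83% of all genes, and 1 was higher, Atp5f1. Their edgeR adjusted p-values were 0.644 to 0.668. The share of all genes that were higher in that fit is not given here. Log2 fold changes in that fit were -0.41 for Ndufa1, -0.47 for Uqcr11 and -0.47 for Ndufa2. Without Nsun5-KO replicates 1 and 3 instead, the median over the members was 0.062. The sign of the shift thus depended on which libraries were used, and no member was called with either pair left out.

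The 13 subunits encoded by mitochondrial DNA, which assemble with the nuclear subunits, all had lower means in Nsun5-KO, with a median log2 fold change of -0.20. Over all genes, 51.4% had a log2 fold change below 0. None of the 13 was called, and 4 were lower at an unadjusted p below 0.05, against 5.05% of all genes. Genes measured in the same libraries are not independent, so these counts are descriptive. mt-Nd4, a core subunit of complex I, had 4738 ± 589 and 3982 ± 333 CPM (SD, n = 4; log2 fold change -0.25, edgeR adjusted p = 0.412). mt-Atp8, which overlaps mt-Atp6, had 2.27 ± 1.65 and 0.772 ± 0.316 CPM (log2 fold change -1.56), from 8 to 68 counts. The others were mt-Co2 and mt-Co3, whose levels, like that of mt-Atp8, lay far below the 19855 to 21782 CPM means of mt-Co1. Near-identical nuclear copies of mitochondrial DNA exist, so the counts of these genes are uncertain.

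The nuclear and mitochondrial sets did not move together over libraries. The median deviation of the mitochondrially encoded set was 0.18, 0.27, -0.027 and -0.054 in WT and 0.044, -0.25, -0.19 and -0.0056 in Nsun5-KO. Replicates 1 and 2 of WT were highest here and among the lowest for the nuclear set, while Nsun5-KO replicate 3 was low in both. Nuclear members took 1.01% to 1.20% of a library's counts, and mitochondrial genes as a whole 5.52% to 7.68%.

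Factors that build the complexes or drive their genes gave no call. Among 18 complex I assembly factors Acad9, which acts early in assembly, had 31.3 ± 1.83 CPM in WT and 37.5 ± 1.85 in Nsun5-KO (difference of 0.26 on the log2 scale, edgeR adjusted p = 0.329). In that list 1 gene was higher and 1, Lyrm2, lower at an unadjusted p below 0.05, against 5.3% and 5.05% of all genes. The median was 0.048. Median log2 fold changes were 0.060 for 4 complex II factors, 0.087 for 6 complex III factors, -0.0016 for 21 complex IV factors and -0.0039 for 5 complex V factors, with 0 at that threshold. The complex IV factors Sco2 and Pet117 had 0 counts in all 8 libraries. Of 12 other chain proteins, among them cytochrome c (Cycs) and cytochrome c1 (Cyc1), 6 were above and 6 below 0.

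Of 20 regulators of mitochondrial biogenesis, 10 had fold changes above 0 and 10 below, with a median of 0.035. Ppargc1b, a coactivator that raises mitochondrial gene expression, had 8.79 ± 1.09 CPM in WT and 11.5 ± 0.754 in the other group (log2 fold change 0.39, edgeR adjusted p = 0.361). Esrrg, a nuclear receptor that it can coactivate, had 36.2 ± 3.28 and 43.1 ± 5.11 CPM (log2 fold change 0.25, edgeR adjusted p = 0.416). These were the 2 regulators with an unadjusted p below 0.05, both higher, where 5.3% of all genes were higher at that threshold. Nrf1, Gabpa and Tfam had log2 fold changes of 0.083, -0.074 and -0.012. In the tricarboxylic acid cycle list of 14 genes the median was 0.026, and Sucla2, a subunit of succinyl-CoA synthetase, was the 1 gene at that threshold (184 ± 7.30 and 205 ± 8.70 CPM, log2 fold change 0.15, edgeR adjusted p = 0.436).

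Neuron, oligodendrocyte, hypothalamus, and choroid plexus and ependyma markers had larger median differences than the subunit genes, and no marker was called. The median log2 fold change was 0.19 for the 9 neuron markers, with summed levels that did not overlap between groups, and -0.40 for the 7 oligodendrocyte markers. Median deviations of the neuron markers were -0.076, -0.13, -0.033 and -0.063 in WT and 0.055, 0.028, 0.098 and 0.065 in Nsun5-KO. The library with the lowest subunit median, Nsun5-KO replicate 3, thus had the highest neuron median. WT replicates 1 and 2, also low in subunit median, were the lowest for the neuron markers as well. The median log2 fold change was -1.86 for the 4 tested hypothalamus markers. It was -0.99 for the 6 choroid plexus and ependyma markers, whose sums overlapped between groups. Summed CPM of the hypothalamus markers was 128, 82.1, 26.6 and 29.9 in WT and 12.8, 12.2, 13.6 and 22.3 in Nsun5-KO. WT replicates 1 and 2 were thus the highest for these markers. The part of cell composition or of the brain regions sampled in the genotype values of the subunit genes was not tested.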

How the data were processed

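Brain RNA of 4 WT and 4 Nsun5-KO samples was sequenced. Reads were aligned with HISAT2 2.0.5 to mm10, per the submitters' processing notes; the sources used here give neither the read counter nor its annotation. Libraries were made with a NEBNext Ultra kit that does not mark strand, per the labels' protocols. The authors deposited raw counts, whole numbers for 54532 genes, with no normalization. The deposited FPKM is the same count over gene length, scaled by 1 constant per library that was 0.981 to 1.02 times its total count.

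Genotypes were compared with edgeR 4.0.16 under R 4.3.3 (filterByExpr by group, TMM scaling, robust quasi-likelihood test over all 8 libraries, no covariate), with Benjamini-Hochberg adjustment over all 16062 genes tested. Alternatives used DESeq2 1.42.0, limma 3.58.1 with voom or with log2 FPKM at pseudocounts of 1 and 0.1, other filters and scalings, a replicate block and libraries left out. Deviations use log2 CPM with a prior count of 2. The pipeline was tested on simulated data. Exact permutation tests of CPM are two-sided. Promoters come from RefSeq (GRCm38.p6); of the members, 68 matched the promoter table by symbol or synonym.

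The members and all gene lists were chosen with earlier results of these data known. Genes are named by rule: Nsun5, members at an unadjusted p below 0.05, the 2 members of each complex and of each companion list with the smallest p, catalytic subunits, isoform sets, untested members and the highest and lowest FPKM of each complex. Not all of them are given values, and 1 member is counted but not reported singly here. Other members described singly are marked as chosen after their values were seen, or for their promoter. Some names outside the members, such as Nrf1, Gabpa and Tfam, follow no rule.

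Of the 84 members, 3 were not tested: Cox7b2, Cox8c and the second Atp5o row, which overlaps the first and had 0 counts. Reads were not assigned by strand, and 20 members overlap another expressed gene. Pseudogenes named after members (11 rows) had at most 41 counts.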

Additional observations from a re-analysis of the deposited data

Results flagged for a closer look

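In groups of 4 libraries, a value far from the other 3 was looked for among the named members and library medians (74 groups, of which chance alone marks about 1 in 20), and 5 values stood apart. Ndufa12 had 68.7 CPM in WT replicate 4, where the other WT libraries had 31.8 to 34.4, and 56.3 CPM in Nsun5-KO replicate 3, where the others had 29.5 to 32.96. Atp5k had 41.5 CPM in Nsun5-KO replicate 3 against 62.3 to 63.0 in the others. Ndufc2 had 54.6 CPM in the same library against 64.1 to 65.2. Atp5b had 1222 CPM in WT replicate 2 against 1290.2 to 1292. Of the 5 values, 3 belong to Nsun5-KO replicate 3, where Atp5k and Ndufc2 were low and Ndufa12 was high. That replicate was also the lowest library for 33 of 81 members.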

How the results depend on the processing

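No subunit gene was called under any alternative run. Over all genes, DESeq2 called 97 and edgeR without a low-count filter 68, against 0, and leaving out single libraries gave 0 to 2 (2 without Nsun5-KO replicate 4). Members higher at an unadjusted p below 0.05 numbered 2 in the reported fit, 0 with library totals as the only scaling, 1 without the filter, 0 without Nsun5-KO replicates 1 and 3, 1 without WT replicates 1 and 2, and 0 to 3 with single libraries left out; lower members numbered 0, then 1 (Cox8b), 9 and 0 to 1 under the last 3 of these. In the reported fit 5.3% of all genes were higher and 5.05% lower at that threshold, and without WT replicates 1 and 2, 3.83% were lower. For the other refits in this section the share over all genes is not given, so their counts are descriptive. Sdhd and Atp5f1 were both lost without WT replicate 2 or Nsun5-KO replicate 2. The complex IV median moved to -0.11 without WT replicates 1 and 2. Replicate numbers did not pair the samples (correlations of same-numbered deviations -0.11, -0.21, -0.041 and 0.063), and with the replicate block 0 members were higher and 1 (Atp5mpl) lower.

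Small differences changed sign. Atp5b was 0.0029 with DESeq2, 0.0020 with either FPKM pseudocount, 0.0031 without the filter and 0.026 without Nsun5-KO replicates 1 and 3. Ndufa2 was 0.036 and 0.035 with log2(FPKM + 0.1) and log2(FPKM + 1), 0.026 with voom and 0.025 with the replicate block; Ndufs6 was 0.0071 and 0.0058 with the FPKM values. Cox4i2 was 0.0036 with log2(FPKM + 0.1). Ndufs1 was -0.0025 with a minimum of 50 counts in 4 libraries and -0.017 with library totals, where Uqcrc1 was -0.0018. Without Nsun5-KO replicates 1 and 3, Sdha was 0.0064, Cox6a2 0.049 and Ndufs6 0.081. Without WT replicates 1 and 2, values were Ndufs1 -0.011, Ndufv1 -0.14, Uqcrfs1 -0.038, Uqcrc1 -0.058, Cox8a -0.13, Atp5a1 -0.016, Atp5g2 -0.018 and Atp5g3 -0.039. With single libraries left out, ranges that crossed 0 were -0.048 to 0.0086 for Sdha, -0.027 to 0.041 for Ndufs1, -0.020 to 0.13 for Ndufv1, -0.0016 to 0.083 for Uqcrfs1, -0.030 to 0.085 for Uqcrc1, -0.16 to 0.17 for Cox4i2, -0.22 to 0.055 for Cox6a2, -0.021 to 0.15 for Cox8a, -0.0028 to 0.057 for Atp5a1, -0.025 to 0.036 for Atp5b, -0.42 to 0.18 for Ndufa12, -0.20 to 0.14 for Ndufa2, -0.21 to 0.12 for Ndufs6 and -0.26 to 0.077 for Uqcr11. The cause was not tested. Depth limits Cox8b, Cox7b2 and Cox8c.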
